A study of Mus musculus with 3 samples.

Results

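The genes described here are 46 genes of DNA replication and mitosis, 20 that act in DNA replication and 26 that act in mitosis and cytokinesis. They were named by function, with earlier results of these data known. Each was read on the array by the brightest of its probe sets (short probe groups that each read 1 transcript region). The array held a probe set listing a single gene for 45 of the 46, of 18193 genes in all; Ccnb1, which encodes cyclin B1, had none. Replication genes act in G1 and S phase. The MCM helicase is placed on origins, opened by firing factors and followed by polymerases that consume deoxynucleotides. Mitosis genes act later, in G2 and M phase, where cyclin-bound Cdk1, the Aurora and Polo kinases, the spindle checkpoint and the cytokinesis machinery separate the chromosomes and then the cells. Most hepatocytes of an adult liver are out of the cell cycle, and both sets are known to be induced when the liver regenerates.

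The study measured livers of 3-month-old mice on a mixed background, 1 week after an intraperitoneal injection of 400 microL of an adeno-associated virus of serotype 8. Control virus carried EGFP (MUP-EGFP-AAV8, n = 2 mice), and Cre virus carried the iCre recombinase, which cuts out floxed DNA (MUP-iCre-AAV8, n = 1 mouse). By the series design all mice carried floxed Hnf4a, but by the sample labels the control livers were wild type and the other one an HNF4alpha knockout; the sources used here do not settle this, and a genotype difference cannot be told apart from the virus. HNF4alpha, encoded by Hnf4a, is a nuclear receptor that drives hepatocyte genes. All values are log2 expression per probe set, so 1 unit is a 2-fold change.

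With 1 Cre liver, every difference below is that of 1 mouse from 2, and an exact permutation test over the 3 arrays cannot go below p = 0.333. Tests were therefore made with limma over all 18193 genes (Benjamini-Hochberg adjusted p under 0.05), which takes the Cre liver to vary as the controls do. Beside it, genes were counted whose Cre value cleared both controls by 1 log2 unit or more, upward or downward. The 4 probe sets of Hnf4a were lower in the Cre liver by 0.55 to 1.18, with adjusted p of 0.0788 to 0.311 in limma over all probe sets; the sources used here do not say which of them lie in the deleted part. The arrays had medians of 4.15 to 4.18 over all probe sets, and Pearson's r across probe sets was 0.993 between the controls and 0.970 and 0.972 between the Cre liver and each control. These are whole livers, in which more cells in cycle and more RNA per cycling cell cannot be told apart.

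The promoters of the members show how the replication and mitosis genes differ in sequence. Cell cycle genes of S phase are known to be controlled through E2F sites, and those of G2 and M phase through a CHR element, often with CCAAT boxes nearby. RefSeq promoters of the GRCm38.p6 assembly, 250 bases before to 50 after each start site, were matched by symbol for 39 of the 46 members, 22 for mitosis and 17 for replication. Both strands were searched for TTTGAA (CHR), for CCAAT, and for TTTCCCGC, TTTCGCGC, TTTGCCGC and TTTGGCGC (E2F). The stretches below are the 150 bases before the start site, 5′ to 3′ on the gene's strand, with every match to these letters in capitals. Mki67, Cdk1, Ube2c and Cdc20 are shown as mitosis genes with CHR matches that had probe sets far higher in the Cre liver, Mcm6 as the replication gene that passed limma as higher, and Pcna as a replication gene that lay below both controls.
Mki67, chr7:135716380-135716529, minus strand: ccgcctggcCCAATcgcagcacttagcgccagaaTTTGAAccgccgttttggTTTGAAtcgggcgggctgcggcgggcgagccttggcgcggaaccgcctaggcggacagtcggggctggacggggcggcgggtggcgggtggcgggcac
Cdk1, chr10:69352913-69353062, minus strand: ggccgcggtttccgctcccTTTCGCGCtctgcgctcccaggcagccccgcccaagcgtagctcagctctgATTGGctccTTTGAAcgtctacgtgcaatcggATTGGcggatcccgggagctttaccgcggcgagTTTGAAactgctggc
Ube2c, chr2:164769779-164769928, plus strand: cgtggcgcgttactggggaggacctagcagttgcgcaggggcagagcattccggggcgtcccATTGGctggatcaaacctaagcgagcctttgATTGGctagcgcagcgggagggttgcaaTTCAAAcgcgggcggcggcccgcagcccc
Cdc20, chr4:118437344-118437493, minus strand: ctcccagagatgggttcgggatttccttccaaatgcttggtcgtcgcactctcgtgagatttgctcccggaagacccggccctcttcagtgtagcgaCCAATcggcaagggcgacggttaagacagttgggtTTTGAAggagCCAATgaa
Mcm6, chr1:128359706-128359855, minus strand: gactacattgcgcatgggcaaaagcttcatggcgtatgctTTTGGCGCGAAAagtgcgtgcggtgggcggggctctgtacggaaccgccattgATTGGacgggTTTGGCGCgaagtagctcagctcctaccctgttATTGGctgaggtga
Pcna, chr2:132253181-132253330, minus strand: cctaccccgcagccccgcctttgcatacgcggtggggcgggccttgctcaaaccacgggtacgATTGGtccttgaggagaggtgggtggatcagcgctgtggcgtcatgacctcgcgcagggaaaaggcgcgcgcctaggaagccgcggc

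Mki67 holds 2 CHR matches, at -116 and -98 from the start site, and Cdk1 holds 2, at -71 and -15, with an E2F match at -131. Ube2c and Cdc20 hold 1 CHR match each, at -29 and -18. Mcm6 holds 3 E2F matches, at -110, -106 and -47, of which the first and the second share 4 bases as read on opposite strands, and no CHR match. Pcna holds a CCAAT match at -87 and neither of the other motifs.

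Over the whole windows, TTTGAA stood in 16 of 22 mitosis promoters (72.7%) and in 1 of 17 replication promoters (5.88%, that of Mcm2), beside 20.2% of all 27025 genes with a promoter. The E2F letters ran the other way: 7 of 17 replication promoters held them (41.2%) and 1 of 22 mitosis promoters (4.55%, that of Cdk1), beside 2.6% of all genes. CCAAT was common in both, in 81.8% of mitosis and 58.8% of replication promoters, beside 41.1% of all genes. CHR and CCAAT stood together in 68.2% of mitosis promoters, 5.88% of replication promoters and 7.97% of all genes. Matches shared bases with one another in Mcm5, Mcm6, Mcm7 and Ube2c. A match is a run of letters and not a bound site, and promoters of Mcm4, Gmnn, Gins1, Ccna2, Foxm1, Aurkb and Kif20a were not analysed here. For some members, Mki67, Aurka and Ect2 among them, the start site used was not the gene start in a RefSeq gene table. Another start site would change the positions and could change the matches counted.

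**Figure D1:**
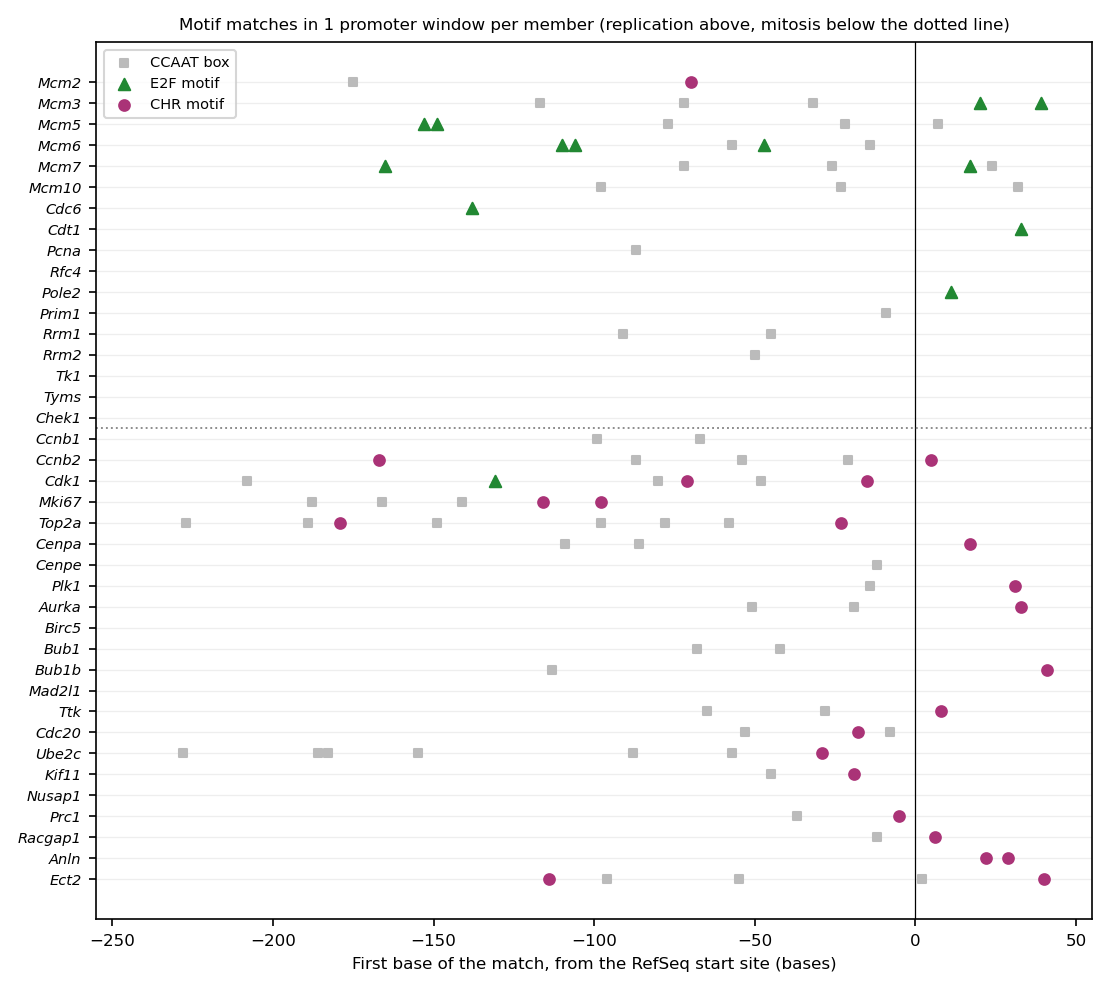
Matches of the CHR (circles), E2F (triangles) and CCAAT (squares) letters in 1 RefSeq promoter per member; the x axis is the first base of the match in bases from the start site, and each row is a gene. CHR matches lie in 16 of the 22 mitosis promoters and E2F matches in 7 of the 17 replication promoters.

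Mitosis genes were higher in the Cre liver over most of the list, and replication genes over a smaller part of it. Of the 25 measured mitosis genes, 16 lay at least 1 log2 unit above both controls and 13 rose by limma; of the 20 replication genes, 3 lay that far above and 1, Mcm6, rose. Over all genes, 2.79% lay at least 1 unit above both controls and 2.45% rose by limma. The median difference was 1.61 for mitosis genes, 0.40 for replication genes and 0.01 for all genes. No test compared the 2 lists with each other, and both were chosen with earlier results of these data known. Wider lists of the same processes differed less from each other. In those, 20 of 64 mitosis genes and 4 of 41 replication genes lay at least 1 unit above both controls. Their medians were 0.48 and 0.32.

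A larger size was counted too. Ccna2, Ccnb2, Mki67, Birc5, Ube2c, Kif20a and Ect2 lay at least 2 units above both controls, 7 mitosis genes and 0 replication genes, where 0.484% of all genes did. By any amount, 23 of 25 mitosis genes and 12 of 20 replication genes lay above both controls, beside 41.2% of all genes. With the mean of all probe sets of a gene, or without probe sets that can read more than 1 transcript, the calls of Cenpa (adjusted p = 0.0869 and 0.103) and Aurka (0.0855 and 0.0564) ended. Of the members, 0 lay at least 1 unit below both controls, where 2.63% of all genes did, and 1, Mcm10, fell by limma, where 2.8% did. Just inside the 1-unit line stood Mcm6, Mcm5 and Nusap1, at 1.14, 1.11 and 1.09 above the higher control, and just outside it Racgap1, Bub1 and Aurkb, at 0.92, 0.91 and 0.91. On the lower side Mcm10 stood at -0.999 from the lower control, so the count of 0 turns on where the line is drawn.

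The limma count depended on the settings. Robust moderation gave 22 members higher, and median centring or quantile normalization 24, against 14, while leaving out probe sets that can read more than 1 transcript gave 9. Over all genes the share called higher also grew, from 2.45% to 5.38% with robust moderation, 7.48% after centring and 7.31% after quantile normalization, and fell to 1.33% without those probe sets. Among all calls of limma, 46.7% were higher; median centring made that share 61.9% and quantile normalization 55.9%. Without probe sets that can read more than 1 transcript, 37 of the 45 members were measured, and Ect2, Kif20a and Birc5 were not among them. The median absolute difference between the controls was 0.17 in both lists, beside 0.15 for all genes, and it reached 0.75 for Rrm2 and 0.68 for Anln.

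**Figure D2:**
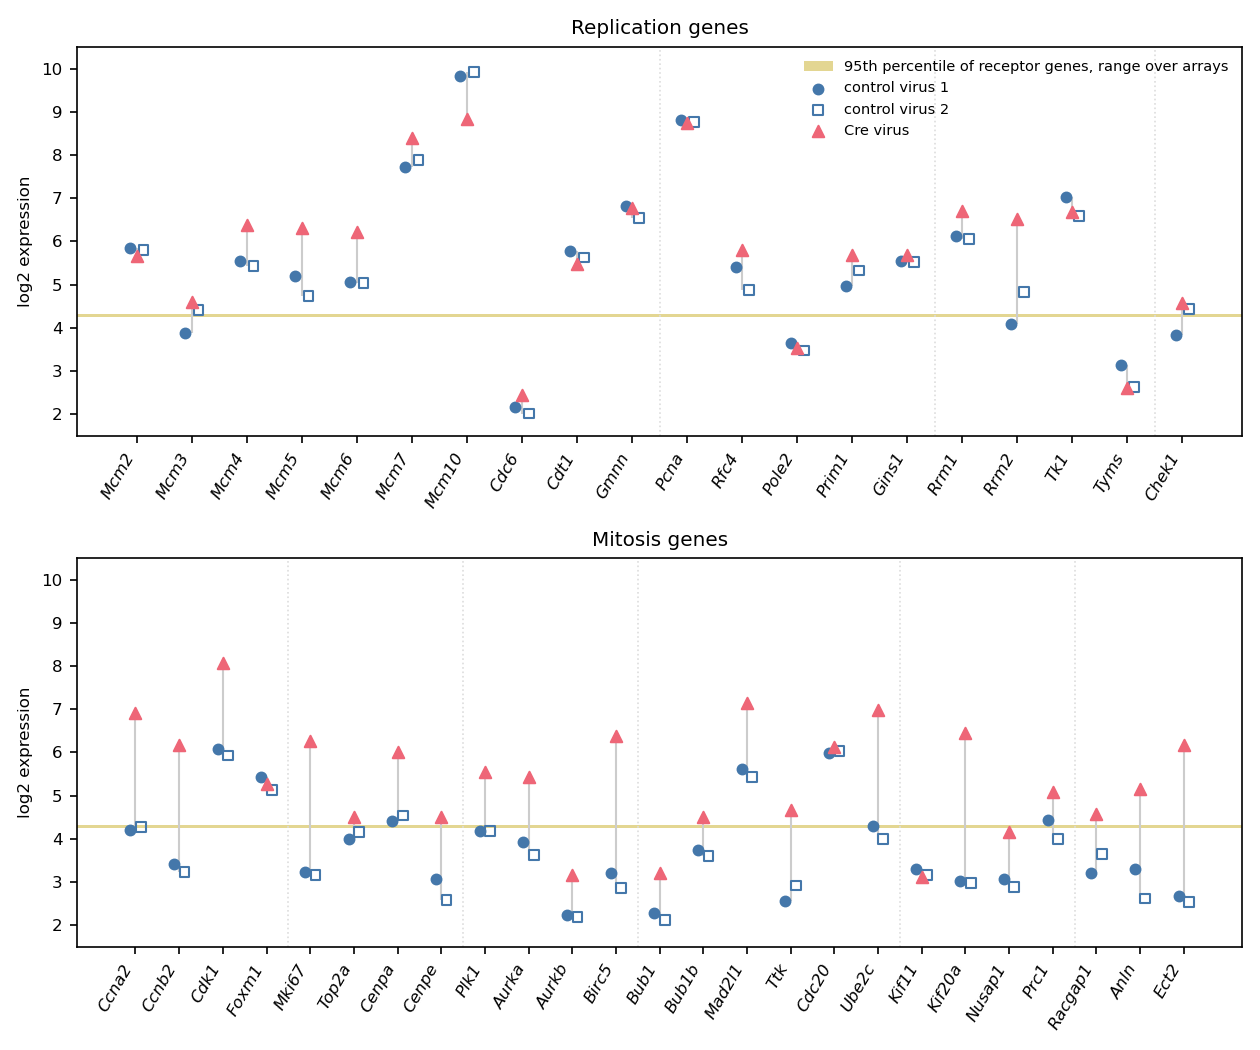
Log2 expression of the 20 replication and 25 measured mitosis genes on each array, with dotted lines between roles; circles and squares are the control livers, triangles the Cre liver, and the band is the 95th percentile of olfactory and vomeronasal receptor genes on the 3 arrays (4.25 to 4.31). Most triangles of the lower panel stand clear of both controls. In the upper panel 12 of 20 lie above both controls, 9 of them by less than 1 unit, and 5 lie below both.

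Of the 4 measured genes of cyclins, Cdk1 and mitotic transcription, 3 rose by limma. Ccna2, cyclin A2, which acts in S phase and at the entry to mitosis, read 4.199 and 4.28 in the controls against 6.92 in the Cre liver, a rise of 2.68 ± 0.17 (SE; 6.42-fold; limma adjusted p = 0.0101). Ccnb2, the mitotic cyclin B2, read 3.41, 3.24 and 6.17, a rise of 2.85 ± 0.18 (adjusted p = 0.0111). Cdk1, the kinase that both cyclins activate, read 6.08, 5.93 and 8.07, a rise of 2.07 ± 0.16 (4.19-fold; adjusted p = 0.0155). For all 3 genes the controls differed by 0.08 to 0.17 and the Cre liver stood apart. Foxm1, the forkhead factor that switches on many G2 and M phase genes, read 5.44, 5.13 and 5.27, so its Cre value lay between the controls (difference -0.02 ± 0.21, adjusted p = 0.965). Its other 3 probe sets differed by 0.01 to 0.07.

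Among genes of mitotic chromosomes and kinetochores, 2 of 4 rose by limma. Mki67, which coats mitotic chromosomes and is the standard proliferation marker Ki-67, read 3.24 and 3.17 in the controls against 6.26 in the Cre liver, a rise of 3.05 ± 0.17 (8.30-fold; adjusted p = 0.00795). Cenpa, the centromeric histone on which kinetochores are built, read 4.41, 4.54 and 6.01 and rose by 1.53 ± 0.18 (adjusted p = 0.0328). Cenpe, a kinetochore motor, read 3.06, 2.58 and 4.50, at least 1.43 above each control, and did not pass limma (adjusted p = 0.0584). Top2a, the topoisomerase that untangles sister chromatids, read 4.002, 4.17 and 4.51 on its brightest probe set. The Cre value lay 0.35 above the higher control there, and a further probe set of Top2a gave a larger difference, described with the probe sets.

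Of 4 genes of the mitotic kinases and the chromosomal passenger complex, which corrects faulty spindle attachments, 3 rose by limma. Birc5, the passenger subunit survivin, read 3.21, 2.86 and 6.37, a rise of 3.33 ± 0.23 (10.1-fold; adjusted p = 0.0127). Aurka, the Aurora kinase of spindle poles, read 3.93, 3.62 and 5.44 and rose by 1.67 ± 0.22 (adjusted p = 0.0415). Plk1, the Polo kinase that drives mitotic entry, read 4.19, 4.18 and 5.56 and rose by 1.37 ± 0.17 (adjusted p = 0.0375). Each of these Cre values stood at least 1.36 units above the higher control. Aurkb, the kinase of the passenger complex, read 2.25, 2.19 and 3.15, 0.91 above the higher control, and did not pass (adjusted p = 0.0532).

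Of 6 genes of the spindle checkpoint and of anaphase, 3 rose by limma. Ube2c, the ubiquitin-conjugating enzyme of the anaphase-promoting complex, read 4.31, 3.99 and 6.98, a rise of 2.83 ± 0.22 (7.13-fold; adjusted p = 0.0158). Ttk, the checkpoint kinase Mps1, read 2.57, 2.92 and 4.67 and rose by 1.93 ± 0.22 (adjusted p = 0.0329). Mad2l1, the checkpoint protein that holds back anaphase, read 5.62, 5.43 and 7.13 and rose by 1.61 ± 0.17 (adjusted p = 0.0299). The Cre liver was outside both controls for the checkpoint kinases Bub1 and Bub1b too. Bub1 read 2.29, 2.12 and 3.20 (adjusted p = 0.0588), and Bub1b read 3.74, 3.60 and 4.50 (adjusted p = 0.0969). Cdc20, which activates the anaphase-promoting complex, read 5.99, 6.04 and 6.13 on its brightest probe set (adjusted p = 0.696), and far more apart on its others.

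Of 7 genes of spindle motors, microtubule bundlers and cytokinesis, 2 rose by limma, Ect2 and Kif20a. On the brightest probe sets these had the largest differences of the members, from control values near array background. Ect2, the exchange factor that activates RhoA for the cleavage furrow, read 2.67 and 2.53 in the controls against 6.16 in the Cre liver, a rise of 3.56 ± 0.18 (11.8-fold; adjusted p = 0.00654). Kif20a, a kinesin of the central spindle, read 3.02, 2.98 and 6.45, a rise of 3.45 ± 0.17 (10.9-fold; adjusted p = 0.00646). Anln, the furrow scaffold anillin, read 3.30, 2.62 and 5.16, and with controls 0.68 apart it did not pass limma (adjusted p = 0.0569). For all 3 the Cre value was at least 1.86 above the higher control. Nusap1, which binds spindle microtubules, read 3.06, 2.89 and 4.15 (adjusted p = 0.0520). Racgap1, a partner of Ect2 at the central spindle, read 3.21, 3.65 and 4.57, and Prc1, which bundles central spindle microtubules, read 4.45, 3.99 and 5.08 (adjusted p = 0.105 and 0.171). Kif11, the motor that pushes spindle poles apart, read 3.30, 3.16 and 3.11, below both controls.

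**Figure D3:**
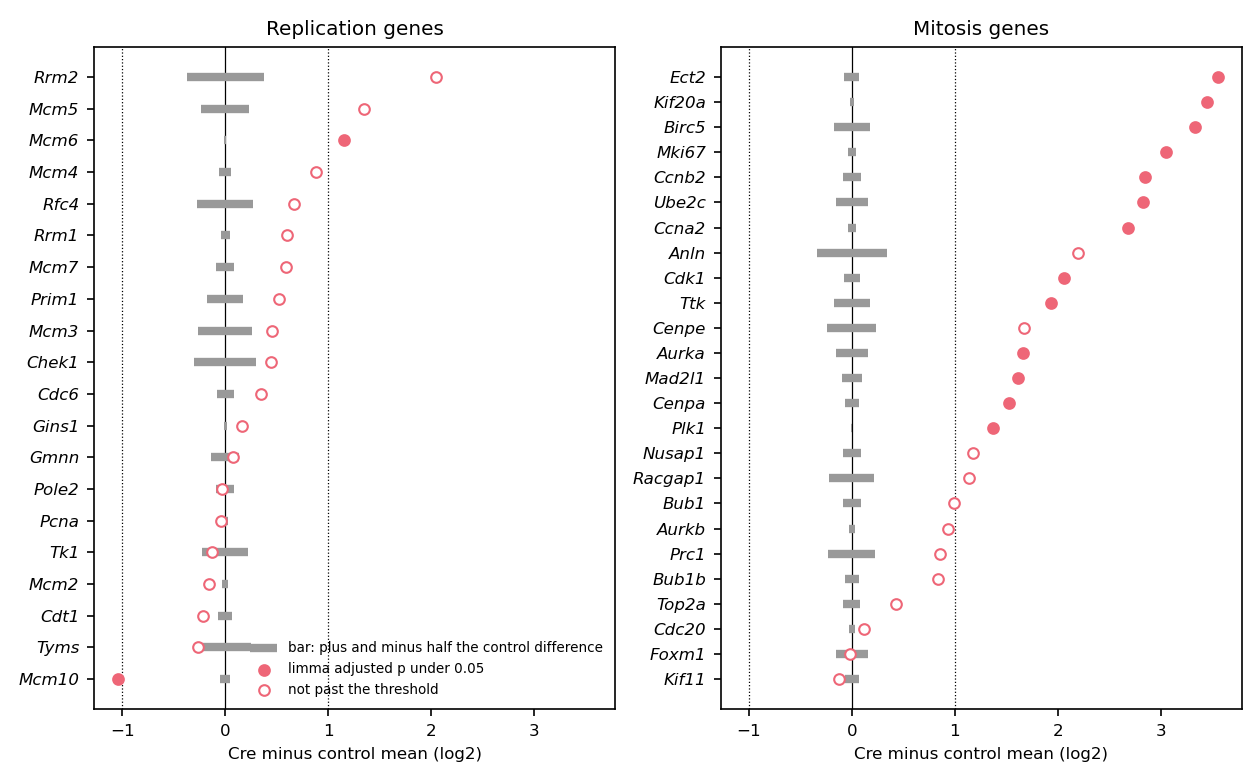
Cre minus control mean (log2) for each member, in order of size within its list; grey bars are as wide as the difference between the controls, centred on 0, and filled points passed limma at an adjusted p under 0.05. The largest mitosis difference is 3.56 (Ect2) and the largest replication difference 2.05 (Rrm2), and Mcm10 is the filled point on the lower side.

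Among the 10 replication genes that form, load or license the MCM helicase, 1 rose and 1 fell by limma. Mcm6, a subunit of the MCM2-7 ring, read 5.07 and 5.04 in the controls against 6.21 in the Cre liver, a rise of 1.16 ± 0.16 (2.23-fold; adjusted p = 0.0460, and 0.0581 without probe sets that can read more than 1 transcript). Mcm5, another subunit of the ring, read 5.21, 4.74 and 6.32, more than 1 unit above both (adjusted p = 0.0826), but its other probe sets differed by 0.16 and -0.16, and the mean of its probe sets by 0.45. Mcm4 read 5.54, 5.43 and 6.37, and Mcm7 read 7.71, 7.89 and 8.39, both above the controls without passing limma (adjusted p = 0.0758 and 0.120). The 6 subunits of the ring did not all stand apart from the controls. Mcm3 read 3.89, 4.42 and 4.61, with controls further apart than the difference of 0.45. Mcm2 read 5.86, 5.79 and 5.67 on its brightest probe set, below both controls. Other probe sets differed by 0.82 for Mcm2, 1.55 for Mcm4, -0.56 to 1.04 for Mcm3 and 0.23 to 0.53 for Mcm7.

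Mcm10, a firing factor that helps to open the loaded helicase, read 9.83, 9.92 and 8.83, a fall of 1.04 ± 0.12 (2.06-fold lower; adjusted p = 0.0309). This call rests on 1 of 3 probe sets: the others differed by -0.10 and -0.38, and the brightest passed neither in the test over all probe sets (adjusted p = 0.0775) nor without an intensity trend in the moderation (adjusted p = 0.0607). Of the loading factors, Cdc6 read 2.18, 2.02 and 2.45, and Cdt1 read 5.77, 5.63 and 5.48. Gmnn, geminin, the inhibitor of Cdt1, read 6.82, 6.55 and 6.77, with the Cre value between the controls. None of these 3 passed limma (adjusted p of 0.265 to 0.829).

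At the fork itself, 0 of 5 genes were called by limma or lay 1 unit above both controls. Pcna, the sliding clamp of the polymerases and a common proliferation marker, read 8.82 and 8.77 in the controls against 8.75 in the Cre liver (difference -0.04 ± 0.12, adjusted p = 0.868). Its values on the 3 arrays spanned less than 0.1, while Mki67, the other marker of this kind, differed by 3.05. Rfc4, of the clamp loader, read 5.41, 4.87 and 5.81, and Prim1, the primase, read 4.98, 5.32 and 5.68. Gins1, of the active helicase, read 5.55, 5.52 and 5.69, and Pole2, of polymerase epsilon, read 3.64, 3.47 and 3.53. On these brightest probe sets Rfc4, Prim1 and Gins1 were above both controls by 0.15 to 0.40, and Pole2 lay between them. A second probe set lay 1.03 above the higher control for Rfc4 and 1.01 above it for Prim1. Those of Gins1 and Pole2 differed by 0.24 and 0.10 from the control mean.

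The genes of deoxynucleotide supply were split. Rrm2, the S-phase subunit of ribonucleotide reductase, had the largest difference of the replication genes: it read 4.08 and 4.83 in the controls against 6.51 in the Cre liver, 1.68 above the higher control. The difference of 2.05 ± 0.37 (4.15-fold) did not pass limma (adjusted p = 0.0725), the controls being 0.75 apart. Rrm1, the large subunit, read 6.14, 6.05 and 6.70 (adjusted p = 0.125). The salvage and synthesis enzymes of thymidine nucleotides were not higher: Tk1, thymidine kinase, read 7.03, 6.58 and 6.68, and Tyms, thymidylate synthase, read 3.14, 2.63 and 2.62. Chek1, the replication checkpoint kinase, read 3.84, 4.43 and 4.58, with controls 0.60 apart. In 9 members the controls differed by more than the Cre liver did from their mean: Mcm3, Gmnn, Pcna, Pole2, Tk1, Tyms, Chek1, Foxm1 and Kif11, of which 7 are replication genes.

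The starting level differed between the lists. As a guide to array background, 71 olfactory and vomeronasal receptor genes, which liver is not known to use, had a 95th percentile of 4.25 to 4.31 on the 3 arrays, and 0 of them rose by limma or lay 1 unit above both controls. Probe sets differ in how strongly they bind, so this range is no detection limit. In the controls, 20 of 25 mitosis genes and 5 of 20 replication genes lay within it, and 13 of the 16 mitosis genes that were 1 unit higher started there. Of all 6957 genes within that range in the controls, 1.83% were 1 unit above both controls. RMA compresses differences near background, so folds from this range may be too small.

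Among members above that range in the controls, 3 of 5 mitosis genes (Cdk1, Cenpa and Mad2l1, not Foxm1 and Cdc20) and 3 of 15 replication genes (Mcm5, Mcm6 and Rrm2) were 1 unit above both controls, where 3.38% of all genes above it were. Cdc6, Pole2, Tyms, Aurkb, Bub1, Kif11 and Nusap1 lay within the range on all 3 arrays. A filter at the 30th percentile of all genes (3.77) would keep 35 of the 45 members, 7 of them only through a high Cre value, and it was not applied.

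The array reads most members more than once, and the brightest probe set was not always the one that differed most. The 45 members had 101 probe sets, 52 for replication and 49 for mitosis, and 16 genes of each list had several. In 7 of those replication genes and 9 of those mitosis genes the probe sets differed in sign, though 21 probe sets of each list lay in the receptor range on all arrays. Counting a gene when any of its probe sets lay 1 unit above both controls, a count chosen after seeing the data, gave 21 of 25 mitosis genes and 6 of 20 replication genes, where 3.48% of all genes did. The genes added were Top2a, Cdc20, Kif11, Prc1 and Racgap1, and Mcm4, Rfc4 and Prim1.

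Cdc20 was the widest case. Beside the flat brightest probe set, a second read 3.55 and 3.90 in the controls against 8.03 in the Cre liver, and another read 3.88, 3.88 and 7.46. These differences, 4.30 and 3.58, passed limma over all probe sets (adjusted p = 0.0259 and 0.0217) and are larger than that of any other member. Top2a read 3.42, 3.06 and 5.07 on its second probe set (difference 1.83, adjusted p = 0.0928 over all probe sets). Kif11 read 2.54, 2.72 and 4.19 on its second, all within the receptor range (difference 1.56, adjusted p = 0.0779). The probe sets had one sign for Rrm2 (2.05, 2.40 and 0.30) and Mcm6 (1.16, 1.596 and 0.31), while Anln (2.20 and -0.03) and Bub1 (0.99 and -0.41) each had 1 that was not higher. For mitosis genes called higher, other probe sets differed by 1.15 (Ccna2), 0.85 and -0.43 (Cenpa), -0.35 (Aurka) and 0.23 (Ttk). Those of Aurka and Ttk and the lower one of Cenpa lay in the receptor range on all arrays. Tested over all probe sets, 10 mitosis and 0 replication probe sets rose, and 0 fell, where 0.233% of all probe sets rose and 0.67% fell.

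**Figure D4:**
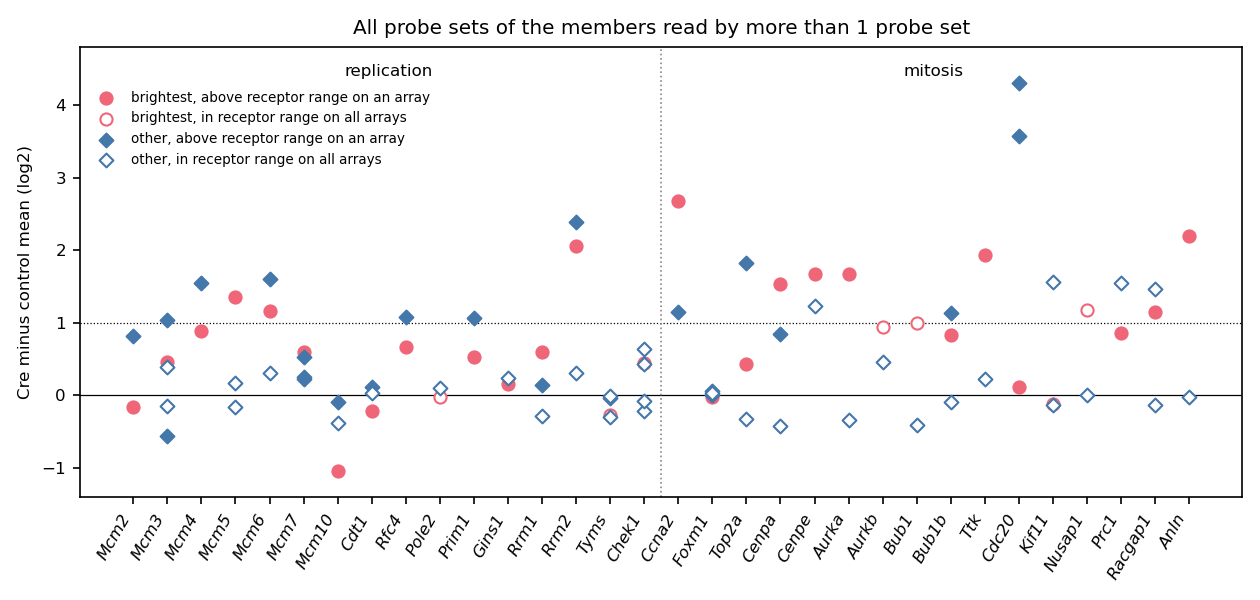
Cre minus control mean (log2) for every probe set of the members with several; circles are the brightest probe set, diamonds the others, and open symbols lie in the range of the receptor genes on all 3 arrays. Cdc20 has diamonds at 3.58 and 4.30 beside a circle at 0.12.

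Further genes of the same processes, from wider lists, were also read. Of 64 further mitosis genes measured, 18 rose and 0 fell by limma, 20 lay 1 unit above both controls, and the median difference was 0.48. Cdca8, borealin of the passenger complex, read 4.64, 4.08 and 6.97 (2.61 higher, adjusted p = 0.0328), and Spc25, of the kinetochore's microtubule-binding complex, read 4.64, 4.76 and 7.05 (2.35 higher, adjusted p = 0.0140). Hmmr, a spindle-associated protein, was 2.31 higher and Ckap2, a microtubule-associated protein, 2.29 higher. Other probe sets of Hmmr differed by -0.16 to 1.25, that of Spc25 by 0.29, and those of Cdca8 by 0.96 and 1.78. The Cre liver stood above both controls for each of these 4. Of 41 further replication genes, 1 rose and 0 fell, and 4 lay 1 unit above both controls. Rpa1, the large subunit of the protein that coats single-stranded DNA, read 8.55, 8.53 and 11.04 (2.50 ± 0.11, adjusted p = 0.00521), and its second probe set was 2.26 higher. The other 3, Dbf4, Lig1 and Dck, named after their values were seen, were 1.16 to 1.33 higher and did not pass limma. The median of this list was 0.32. The share lying 1 unit above both controls was 31.25% for the further mitosis genes and 9.76% for the further replication genes, beside 2.79% of all genes. The share of further replication genes that rose by limma was close to that of all genes, given above.

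Of 19 regulators of the E2F, Rb and DREAM system, which times both sets of genes, 1 rose and 0 fell, with a median difference of 0.08. Rbl1, the pocket protein p107, read 3.50, 3.14 and 4.91 and rose by 1.59 ± 0.23 (adjusted p = 0.0482). Its other 3 probe sets differed by -0.16 to 0.13. In a list this short, 1 call says little beside the share of all genes given above.

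**Figure D5:**
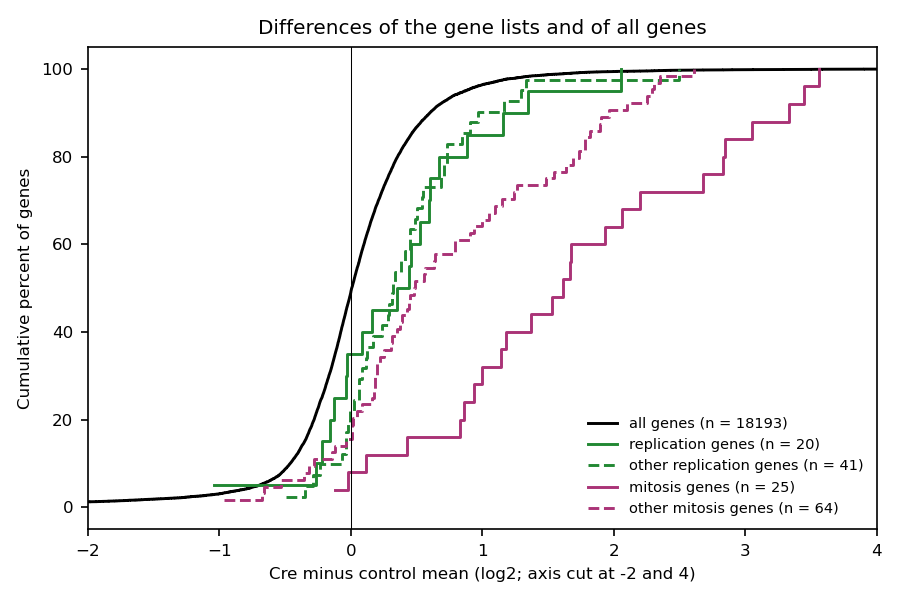
Cumulative percent of genes (y axis) by Cre minus control mean on the log2 scale (x axis, drawn from -2 to 4) for all genes, the 2 member lists and 2 lists of further genes of the same processes. The median is 0.01 for all genes, 0.40 for replication genes, 0.32 for the other replication genes, 0.48 for the other mitosis genes and 1.61 for the mitosis genes.

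Markers of cell types that a liver holds were read on the same arrays, since cycling cells need not be hepatocytes. The shares of all genes that limma called, given above, are small, so 0 calls in lists this short say little. By the control mean and the Cre value, 7 of the 11 measured T, B and NK cell markers lay in the receptor range. Of 11 measured markers of T, B and NK cells 0 passed limma, and their mean level was 4.12 and 4.01 in the controls against 3.996 in the Cre liver. Of 11 markers of macrophages and neutrophils 0 passed; their mean was 5.70, 5.97 and 6.17, and the members with the largest differences were Cd5l (0.96) and Vsig4 (0.86), both of liver macrophages. In that list the controls already differed by a median of 0.33, more than the median Cre difference of 0.25. For Cd5l and Vsig4 they differed by 0.84 and 0.77. Above both controls lay 7 of 8 endothelial markers, with Pecam1 most apart (0.71 higher), beside 41.2% of all genes. So did 6 of 8 stellate cell markers, with Col3a1 most apart (0.36 higher). Of 8 endothelial and 8 stellate cell markers, 0 passed, with means of 6.75, 6.80 and 7.06 and of 6.47, 6.58 and 6.70.

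Erythroid precursors also cycle, though 5 of their 8 measured markers lay in the receptor range by the control mean and the Cre value. Of 8 measured erythroid markers 0 rose and 2 fell, Alas2 by 3.27 and Klf1 by 1.91, and the mean was 4.78 and 4.84 in the controls against 4.10 in the Cre liver. Of 5 cholangiocyte markers 0 passed; Sox9, also found in immature hepatocytes, read 3.87, 4.82 and 6.69 (2.35 higher, adjusted p = 0.0799), while Krt7, Krt19 and Cftr lay in the receptor range. Of 7 hepatocyte markers 2 fell, Apoa2 by 1.81 and Tat by 1.02, and the mean was 14.03, 14.07 and 13.70. The part of these cell types in the members' differences was not tested.

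The promoter letters were also counted by response. CHR stood in 10 of 17 members that were 1 unit above both controls (58.8%) and in 7 of 21 other measured members (33.3%), and the E2F letters in 3 of 17 and 5 of 21. Mcm2, Top2a, Bub1b, Cdc20, Kif11, Prc1 and Racgap1 hold CHR and were not 1 unit higher on their brightest probe sets. Of these, Top2a, Cdc20, Kif11, Prc1 and Racgap1 were 1 unit higher on another probe set. Mcm5, Mcm6, Rrm2, Cenpe, Birc5, Mad2l1 and Nusap1 were 1 unit higher and hold none in this window. Most of the higher members are mitosis genes, so this count does not separate the list from the response.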

How the data were processed

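Liver RNA of 3 mice was extracted with Trizol, labelled with a biotin 3-prime expression kit and hybridised to 1 array each, per the labels' protocols. The authors' values, per probe set and on a log2 scale, came from RMA in Partek 6.5 according to the submitters' processing notes, and are used as deposited; base 2 was inferred from the largest value, 15.048. RMA equalises arrays, which hides a shift shared by all genes. Of 45101 probe sets, 34945 listed 1 gene; symbols were updated by Entrez ID through a RefSeq gene table. Each of 18193 genes was read by its single-gene probe set with the highest mean over the arrays, with no filter. Cre was compared with control virus in limma 3.58.1 (lmFit, eBayes with trend; 1 residual and 2.87 prior degrees of freedom), two-sided and Benjamini-Hochberg adjusted. The labels call the controls biological replicates. Members and lists were chosen with earlier results of these data known. All members were named; of the other pathway lists, up to 4 genes with the largest difference past the threshold and any that fell; marker lists by counts and largest differences. Alternatives were moderation, dim-gene filters, choice of probe set, scaling, thresholds and each control left out. The fit was tested on simulated data. The number of arrays limits the precision.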

Additional observations from a re-analysis of the deposited data

How the results depend on the processing

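Member differences kept their direction, and where tested their side of the threshold, in 395 of the comparisons made across alternatives. They gained a call in 39, lost one in 8, and reversed in 13. In 4 more, without a test, the sign turned with 1 control left out (Gmnn -0.057, Pole2 0.055, Tk1 0.095 and Foxm1 0.13). The 395 include the other comparisons with 1 control left out, which had no test and counted as kept whenever the sign held. Members higher by limma, 14 as reported, were 22 with robust moderation, 9 without shared or mixed probe sets (fewer genes tested), 24 after median centring, 24 after quantile normalization, and 3 and 23 at adjusted p thresholds of 0.01 and 0.1; prior degrees of freedom were 2.87, against 6.29 after centring and 7.58 after quantile normalization. Replication genes higher, 1 as reported, were 4 under robust moderation, both dim-gene filters, centring, quantile normalization and a threshold of 0.1, 3 with the mean of probe sets, and 0 without shared probe sets or at 0.01. Mitosis genes higher, 13 as reported, were 6 with a filter on the control mean, which keeps 10 of the 25 measured, 20 after centring or quantile normalization, and 3 at 0.01. The count of members lower went from 1 to 0 without trend, with the mean of probe sets, without shared probe sets and at 0.01. Members 1 unit above both controls, 19 as reported, were 9 with the filter on the control mean (6 of mitosis) and 7 at 4-fold (7 of mitosis, 0 of replication); any probe set gave 6 replication genes.

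The replication median of 0.40 was 0.45 with either filter, 0.24 with the mean of probe sets, 0.26 with the probe set brightest in controls, 0.16 without shared probe sets, and 0.20 to 0.34 with 1 control left out. The mitosis median of 1.61 was 1.45 with the control filter, 1.20 with the mean of probe sets, 1.496 after quantile normalization, and 1.51 to 1.71 with 1 control left out. Reversals were Mcm2 (0.33 with the mean, 0.82 without shared probe sets), Mcm3 (-0.56 with the probe set brightest in controls or without shared ones), Cdt1 (0.12 without shared), Gmnn (-0.059 by quantile), Pole2 (0.035 with the mean, 0.026 by quantile), Foxm1 (0.022 with the mean), Bub1 (-0.41) and Anln (-0.028) with the probe set brightest in controls, Cdc20 (-0.0015 by quantile) and Kif11 (0.43 with the mean). Apart from changes that follow from fewer genes or another probe set, the cause was not tested. Without either control the comparison has no residual degrees of freedom and so no test. No paired analysis was possible with 1 Cre liver. Signal near array background limits the dim mitosis genes.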
